A study of Rattus norvegicus with 12 samples.

Results

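The genes described are 9 members of the cellular stress response, in 2 arms: 6 targets of the transcription factor ATF4 (Atf3, Chac1, Trib3, Asns, Ddit3 and Ddit4) and 3 chaperones of the endoplasmic reticulum (Hspa5, Hsp90b1 and Pdia4). They were chosen by name, as every probe that is no control spot and whose gene name or transcript accession on the array maps to a member; Hsp90b1 is written Tra1 there. This gave 11 probes for the 9 genes, of 41012 probes for 35527 genes or unmatched transcripts. Chac1 and Hsp90b1 had 2 probes each. The samples were kidney cortex of male Fisher 344 rats, 8 weeks old, hybridised in 1 colour with 1 array per animal and 3 animals per group. A control group received saline (0 mg/kg), and low, middle and high groups received 150, 300 and 600 mg/kg of cephaloridine, each as a single intravenous injection 24 h before sacrifice. Cephaloridine is a cephalosporin antibiotic that proximal tubule cells take up from the blood and that is toxic to them. The series set subtoxic against toxic doses.

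Several kinases phosphorylate the translation factor eIF2α when amino acids run short, haem is lacking, viral RNA is present or unfolded proteins collect in the endoplasmic reticulum (ER). Most translation then falls while that of ATF4 rises, and ATF4 switches on genes for amino acid supply and for stress signalling. Unfolded protein in the ER also activates ATF6 and the XBP1 pathway, which raise the ER chaperones. The ATF4 arm can therefore be switched on with or without the chaperone arm, depending on the kinase. ATF4 is controlled largely at translation, so the level of its own mRNA says little of its activity.

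Control elements are known for promoters of both arms, and the 4 windows shown hold letters that match them. Whether the matches are bound was not tested. RefSeq windows of the rat assembly GRCr8, from 250 bases before to 50 after the start of the gene, were found for 8 of the 9 members. The composite element of ATF4 and C/EBP factors was searched on both strands as TGATG and AA with 1 base of any kind between them. It stood in the windows of Chac1 (167 bases before the start) and Trib3 (21 bases before), and in 3.98% of all 33469 windows. The ER stress element bound by ATF6 together with NF-Y was searched on both strands as CCAAT and CCACG with 9 bases of any kind between them. It stood once in the window of Hspa5 (43 bases before the start) and at 2 places in that of Hsp90b1 (176 and 72 bases before), and in 22 of all windows (0.0657%). The matches are in capitals, and those read from the other strand appear as their reverse complement. The 2 motifs did not overlap in any window shown. Neither set of letters occurred in the windows of Asns, Ddit3, Ddit4 and Pdia4.
Chac1, chr3:126795881-126796180, plus strand: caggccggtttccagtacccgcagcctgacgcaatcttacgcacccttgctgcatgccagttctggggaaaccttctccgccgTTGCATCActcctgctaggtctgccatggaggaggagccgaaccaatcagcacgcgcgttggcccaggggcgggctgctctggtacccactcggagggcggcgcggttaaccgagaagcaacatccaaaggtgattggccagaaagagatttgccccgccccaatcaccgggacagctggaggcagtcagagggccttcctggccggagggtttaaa
Trib3, chr3:161275484-161275783, minus strand: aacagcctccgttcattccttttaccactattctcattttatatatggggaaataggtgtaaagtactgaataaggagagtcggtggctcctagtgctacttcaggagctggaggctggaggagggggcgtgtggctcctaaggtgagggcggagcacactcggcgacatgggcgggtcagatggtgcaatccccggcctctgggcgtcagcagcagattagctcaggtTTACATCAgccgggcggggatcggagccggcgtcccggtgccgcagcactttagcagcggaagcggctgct
Hspa5, chr3:38452766-38453065, plus strand: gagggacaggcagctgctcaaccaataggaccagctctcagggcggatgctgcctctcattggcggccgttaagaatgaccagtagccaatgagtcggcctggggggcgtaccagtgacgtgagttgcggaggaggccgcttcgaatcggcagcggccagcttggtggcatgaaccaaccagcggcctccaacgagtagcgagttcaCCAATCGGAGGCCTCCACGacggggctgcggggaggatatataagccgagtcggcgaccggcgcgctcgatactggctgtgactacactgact
Hsp90b1, chr7:23012244-23012543, minus strand: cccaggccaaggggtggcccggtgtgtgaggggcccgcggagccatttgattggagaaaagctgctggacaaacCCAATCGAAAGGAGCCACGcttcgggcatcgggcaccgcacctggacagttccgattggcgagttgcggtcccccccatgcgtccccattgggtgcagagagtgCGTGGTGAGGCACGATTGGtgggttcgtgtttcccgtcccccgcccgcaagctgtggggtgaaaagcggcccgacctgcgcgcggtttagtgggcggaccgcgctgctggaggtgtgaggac

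The 12 arrays were alike in overall signal, with 75th percentiles of the processed signal from 627 to 712, 59.2% to 63.2% of probes well above background and 0 saturated spots. Values are log2 signals minus the 75th percentile of the same array, so a gene at 0 is as bright as that percentile. The slides did not hold the groups evenly. Slide 1 held the 3 controls and low 1, slides 2 and 3 each held 1 low and 1 middle animal, and slide 4 held middle 3 with the 3 high animals. Slide and dose can be separated only through those shared slides, and the high animals share none with the controls. Each comparison was therefore also fitted with the slide as a blocking factor (the slide-blocked fit), and for the members both values are given where they differ in call. For lists of other genes the counts of both fits are given. With the block the median standard error of the high against control comparison was 0.154, against 0.0757 without it. In whole cortex, a smaller share of cells of a type and less RNA per cell cannot be told apart.

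The 4 ATF4 targets Atf3, Chac1, Trib3 and Asns rose at 600 mg/kg against 300 mg/kg, groups that share slide 4 through middle 3. These 4 of the 6 ATF4 targets were higher and 0 were lower by limma at a Benjamini-Hochberg adjusted p under 0.05, against 9.61% of all 20759 tested genes higher and 12.9% lower (22.5% in either direction). The same 4 were called in the slide-blocked fit, where 9.75% of all genes were called. Of the 3 chaperones, Hsp90b1 was called lower, and in the slide-blocked fit none was. Ddit3 and Ddit4 were not called in either fit. Of the 20759 tested genes 11047 carried a gene symbol, and each share of all genes counts those without a symbol too.

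Atf3, a stress-inducible transcription factor of the ATF/CREB family, had log2 signals of 2.35, 1.99 and 2.33 in the high animals, against -0.25, -0.053 and -0.34 in the middle animals. The groups were far apart, with a change of 2.44 ± 0.39 (5.43-fold, standard error of limma, n = 3 animals per group, adjusted p = 0.00195, and 2.57, adjusted p = 0.00378, in the slide-blocked fit). Chac1, an enzyme that degrades glutathione, read -3.03, -2.88 and -2.68 in the high animals and -5.02, -5.16 and -5.02 in the middle animals. Its probe was well above background on all 3 high arrays and on 0 of the 3 middle arrays, so the difference is a lower bound: at least 4.40-fold higher (adjusted p = 7.02e-05, and 0.00188 in the slide-blocked fit). The bound sets the mean of the high group against, on each middle array, the higher of the lowest signal well above background and the signal of the probe itself. With normexp background correction, which raises dim signals, the log2 difference was 0.88, and 0.80 at 600 mg/kg against control. Chac1 entered the test through the high group alone, the 1 group with the probe well above background on all 3 arrays, so a difference was built into its selection and its adjusted p is no independent support for the count of called genes. The probes of Atf3, Trib3 and Asns were well above background on all 12 arrays. The other Chac1 probe was well above background on 2 of the 12 arrays and was not tested.

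Trib3, a pseudokinase that restrains ATF4 and Akt signalling, had log2 signals of -0.67, -0.53 and -0.43 in the high animals, against -1.87, -1.75 and -1.92 in the middle animals. It rose 2.47-fold (log2 1.30 ± 0.08, adjusted p = 1.38e-05, and 0.00173 in the slide-blocked fit). Asns, asparagine synthetase, read 0.65, 0.84 and 0.85 in the high animals and -0.18, -0.019 and -0.12 in the middle animals. It rose 1.85-fold (log2 0.88 ± 0.09, adjusted p = 0.000195, and 0.0126 in the slide-blocked fit). For all 4 genes the lowest high animal stood above the highest middle animal, as for 15.5% of all tested genes. Within slide 4 alone, the 3 high animals minus middle 3 gave log2 differences of 2.57 for Atf3, 1.37 for Trib3 and 0.90 for Asns. These are also the slide-blocked changes, which rest on that 1 middle array.

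**Figure D1:**
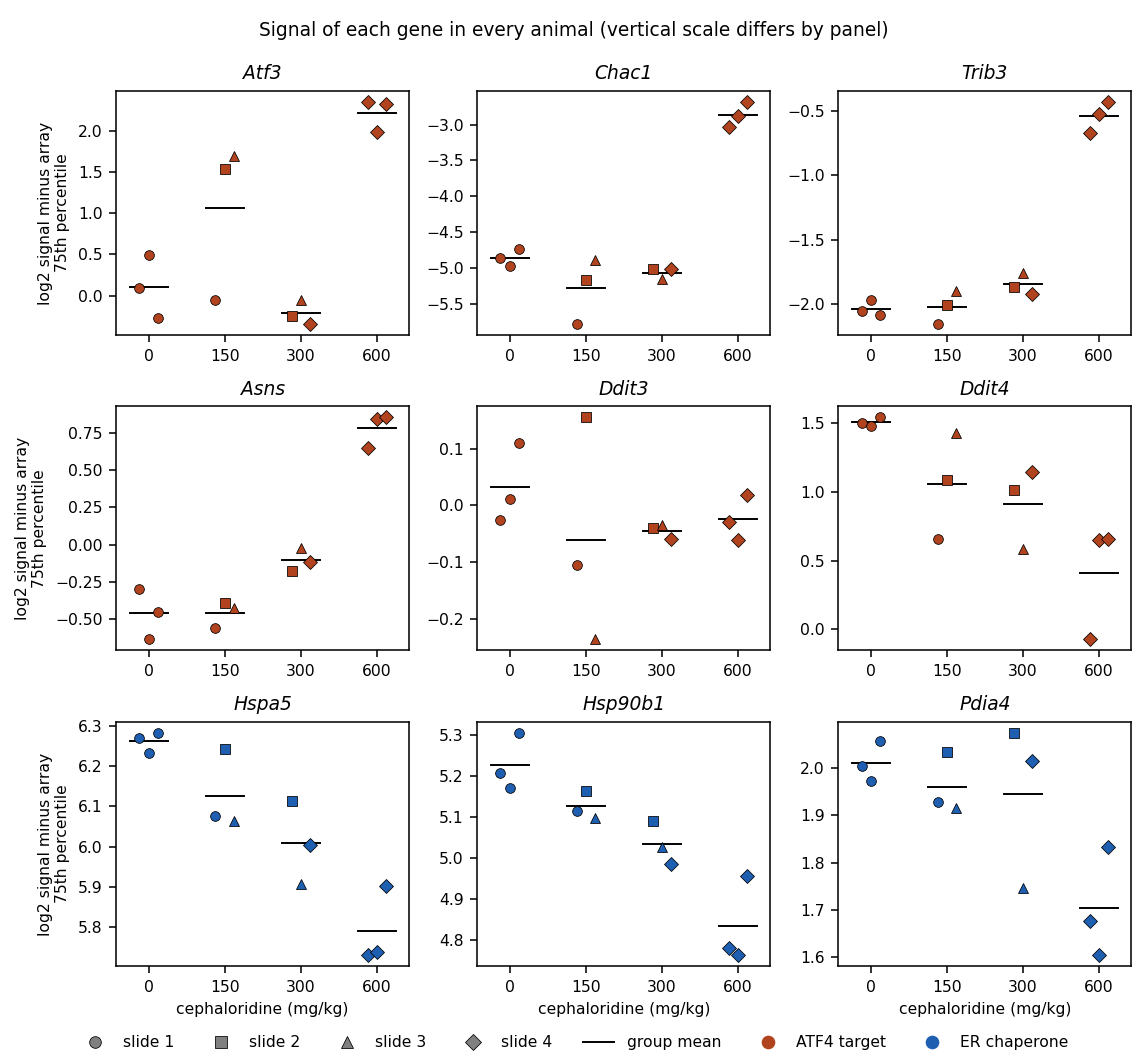
Log2 signal minus the 75th percentile of the array (vertical axis, own scale in each panel) of each of the 9 genes in each of the 12 animals, by dose in mg/kg. Marker shapes show the slide, bars the group means, red the ATF4 targets and blue the ER chaperones. The high animals stand above the others for Chac1, Trib3 and Asns, low 2 and low 3 stand nearer to the high animals than to the controls for Atf3, and the group means of the chaperones and Ddit4 are lowest in the high group.

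At 600 mg/kg against control the same 4 genes were higher and Ddit4 was lower, while all 3 chaperones were lower. The comparisons with control share the 3 control animals, and both comparisons at 600 mg/kg share the 3 high animals. These are 5 of 6 and 3 of 3 members called, where 34.8% of all tested genes were called (18% higher, 16.8% lower). In the slide-blocked fit Trib3 kept its call (log2 1.40, adjusted p = 0.0153) and the other 7 lost theirs, where 2.81% of all genes were called. Trib3 had -0.67, -0.53 and -0.43 in the high animals, against -2.06, -1.97 and -2.08 in the controls. It rose 2.81-fold (log2 1.49 ± 0.08, adjusted p = 2.82e-06). Its groups did not overlap.

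Asns stood at 0.65, 0.84 and 0.85 in the high animals, against -0.30, -0.63 and -0.45 in the controls. It rose 2.36-fold (log2 1.24 ± 0.09, adjusted p = 1.78e-05), and in the slide-blocked fit the change was 1.11 (adjusted p = 0.0543). The 2 fits thus differ little in size for Asns and lie on either side of the threshold. Chac1 read -3.03, -2.88 and -2.68 in the high animals, against -4.86, -4.97 and -4.73 in the controls, of which 1 of 3 was well above background. The high animals all stood above the controls. The measured difference was 1.99 ± 0.19 (adjusted p = 7.14e-05) and 1.17 in the slide-blocked fit (adjusted p = 0.07), but with 2 control signals at background its size is uncertain (0.80 with normexp). Atf3 had log2 signals of 2.35, 1.99 and 2.33 in the high animals, against 0.091, 0.50 and -0.28 in the controls. Its change was 2.12 ± 0.39 (adjusted p = 0.00255), and 0.64 in the slide-blocked fit (adjusted p = 0.448). That route runs from the controls through low 1 on slide 1. It goes on through the low and middle animals on slides 2 and 3, and reaches the high animals through middle 3 on slide 4.

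Atf3 did not follow the dose. The low animals read -0.054, 1.54 and 1.70, so that 2 of 3 stood well above every control (0.091, 0.50 and -0.28) and the first did not. Low against control gave 0.96 ± 0.39 (adjusted p = 0.446), and without low 1 the call was made (adjusted p = 0.026). No member was called in this comparison, where 0.101% of all genes were, and Trib3 and Asns changed by 0.017 and 0.0011 (adjusted p = 0.965 and 0.998). The middle animals were all below low 2 and low 3. Middle 1 minus low 2 on slide 2 was -1.79, and middle 2 minus low 3 on slide 3 was -1.75. Low 1 minus the controls, on slide 1, was -0.16. The middle against low change of Atf3 was -1.28 ± 0.39 (adjusted p = 0.174), and -1.77 in the slide-blocked fit (adjusted p = 0.0457). In that comparison no member was called without the block (0.231% of all genes were), and Atf3 was the 1 member called with it (0.342% of all genes).

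Other genes were also high in low 2, low 3 and the high animals. Ppp1r15a, the phosphatase subunit that reverses eIF2α phosphorylation and an ATF4 target itself, read 0.16, 0.28 and 0.11 in the controls, 0.0036, 0.74 and 0.78 in the low animals, -0.32, -0.11 and -0.19 in the middle animals, and 0.88, 0.77 and 0.77 in the high animals. Low 1 and the middle animals thus stood below all 3 controls. The cytokine gene Gdf15 read 1.14, 1.38 and 1.14 in the controls, 0.57, 1.76 and 1.81 in the low animals, 1.12, 1.43 and 1.27 in the middle animals, and 2.32, 2.04 and 2.12 in the high animals. Both had their highest low values in low 2 and low 3. Across all 12 arrays, the non-member genes with a pattern most like that of Atf3 were the chemokine gene Ccl3 (Pearson r 0.97), Ppp1r15a (r 0.96) and the cytokine gene Il1b (r 0.96), by a rule added after values were seen. Immediate early genes, a class of rapidly induced transcription factors and signalling regulators, showed this too. The median of their 15 tested genes, each set against its control mean, was -0.0037, 0.12 and -0.13 in the controls, -0.17, 0.94 and 0.81 in the low animals, -0.32, -0.32 and -0.37 in the middle animals, and 0.54, 0.43 and 0.54 in the high animals. At 300 against 150 mg/kg 0 of the 15 were called without the block (0.231% of all genes), and 9 were lower with it (0.342% of all genes called). At 600 against 300 mg/kg 7 were higher without the block (9.61% of all genes) and 9 with it (9.75% of all genes called). At 600 mg/kg against control 3 were higher and 1 lower without the block (median 0.49, with 34.8% of all genes called), and 1 was higher and 1 lower with it (median -0.64, with 2.81% of all genes called). Fosl1, not well above background in the controls, was at least 4.99-fold higher in the high animals (adjusted p = 0.000562, and 0.0439 in the slide-blocked fit). It could enter the test only through a dosed group, so its adjusted p is no independent support for the count. Egr2 rose by 2.17 ± 0.72 (adjusted p = 0.0392, and log2 -1.02, adjusted p = 0.545, in the slide-blocked fit) and Jund fell by 0.22 ± 0.07 (adjusted p = 0.038, and 0.208 in the slide-blocked fit). The part of the immediate early genes in the Atf3 values was not tested.

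Ddit3, the CHOP transcription factor that ATF4 induces under prolonged stress, did not pass the test at any dose. Its log2 signals were -0.025, 0.012 and 0.11 in the controls, -0.10, 0.15 and -0.24 in the low animals, -0.040, -0.035 and -0.060 in the middle animals, and -0.028, -0.061 and 0.019 in the high animals. Neither the middle nor the high animals lay outside the range of the low animals. At 600 mg/kg against control it changed by -0.056 (adjusted p = 0.642), with a 95% interval of -0.25 to 0.14. Changes of the size seen for Trib3 or Asns thus lie outside the interval of Ddit3 in this comparison. Atf4 itself read 4.80, 4.81 and 4.80 in the high animals, against 4.71, 4.89 and 4.75 in the controls (log2 change 0.015, adjusted p = 0.857).

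Ddit4, an inhibitor of the growth kinase complex mTORC1 that glucocorticoids and low oxygen also raise, moved the other way. It read -0.072, 0.65 and 0.66 in the high animals, against 1.505, 1.48 and 1.54 in the controls. All 3 high animals stood below all 3 controls, and high 1 was the lowest of all 12 animals. It fell by 1.10 ± 0.23 on the log2 scale (2.14-fold lower, adjusted p = 0.00534), and the slide-blocked change was -2.05 (adjusted p = 0.0797). At 300 mg/kg it read 1.02, 0.58 and 1.15, against 1.505, 1.48 and 1.54 in the controls (log2 -0.59 ± 0.23, adjusted p = 0.119). The low animals read 0.66, 1.08 and 1.43, and the change did not pass (log2 -0.45 ± 0.23, adjusted p = 0.55). Of the 7 tested glucocorticoid responsive genes 1 was higher and 1 lower at 600 mg/kg against control, with a median of -0.41, where 34.8% of all genes were called. In the slide-blocked fit 0 were called and the median was -0.999. Zbtb16, a transcription factor, was at least 1.90-fold higher in the high animals than in the controls, where it was not well above background (adjusted p = 0.00182, and 0.606 in the slide-blocked fit), and Errfi1, an inhibitor of EGF receptor signalling, fell by 0.83 ± 0.17 (adjusted p = 0.00456, and 0.15 in the slide-blocked fit). Zbtb16, like Fosl1, could enter the test only through a dosed group. Of the 8 hypoxia responsive genes 2 were higher and 2 lower, with a median of 0.048. The lactate dehydrogenase gene Ldha and the prolyl hydroxylase gene Egln3 rose by 0.40 ± 0.04 and 0.29 ± 0.10 (adjusted p = 0.000118 and 0.0465), and Ankrd37 and the growth factor gene Vegfa fell by 0.35 ± 0.07 and 0.35 ± 0.08 (adjusted p = 0.00315 and 0.00988). In the slide-blocked fit Ldha was the 1 hypoxia gene called (adjusted p = 0.0439), and Egln3, Ankrd37 and Vegfa were not (adjusted p = 0.293, 0.16 and 0.163). Their part in the Ddit4 values was not tested.

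The 3 chaperones fell at 600 mg/kg against control by 0.31 to 0.47 on the log2 scale, and their brightest probes were well above background on all 12 arrays. Hspa5 (BiP, the main Hsp70 of the ER and a regulator of its stress sensors) read 5.73, 5.74 and 5.90 in the high animals, against 6.27, 6.23 and 6.28 in the controls. No high animal reached a control, and it fell 1.39-fold (log2 -0.47 ± 0.07, adjusted p = 0.000898). Hsp90b1 (GRP94, the Hsp90 of the ER) read 4.78, 4.76 and 4.96 on its brighter probe in the high animals, against 5.21, 5.17 and 5.30 in the controls. It fell 1.31-fold (log2 -0.39 ± 0.06, adjusted p = 0.000999). Its second probe read 1.29, 1.26 and 1.46 in the high animals, against 1.91, 1.72 and 1.92 in the controls, and fell 1.43-fold (log2 -0.51 ± 0.12, adjusted p = 0.00945 over all 24728 probes tested). Pdia4 (ERp72, a protein disulfide isomerase) read 1.68, 1.61 and 1.83 in the high animals, against 2.01, 1.97 and 2.06 in the controls. It fell 1.24-fold (log2 -0.31 ± 0.09, adjusted p = 0.0204), and leaving out any of control 1, control 3, high 1 and high 2 ended this call (adjusted p up to 0.0725). In the slide-blocked fit the changes were -0.54 for Hspa5, -0.34 for Hsp90b1 and -0.46 for Pdia4, and none was called (adjusted p = 0.0733, 0.248 and 0.171).

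At 300 mg/kg against control 1 of the 3 chaperones passed. Hspa5 read 6.11, 5.91 and 6.00 in the middle animals, against 6.27, 6.23 and 6.28 in the controls. It passed there (log2 -0.25 ± 0.07, adjusted p = 0.0422), and so did Asns, the only ATF4 target that passed (log2 0.36 ± 0.09, adjusted p = 0.0314). In that comparison 13% of all genes were called (8.21% higher, 4.81% lower), and in the slide-blocked fit (0.217% of all genes called) neither member was (log2 -0.33, adjusted p = 0.181, and log2 0.21, adjusted p = 0.564). The Hspa5 call was lost without 9 of the 12 arrays in turn (control 1, 2 or 3, low 1 or 3, middle 2 or 3, high 1 or 2) and the Asns call without 4 (control 2 or 3, middle 2 or 3), with highest adjusted p of 0.12 and 0.107. Hsp90b1 read 5.09, 5.03 and 4.98 in the middle animals and did not pass (log2 -0.19 ± 0.06, adjusted p = 0.0609). Pdia4 read 2.07, 1.75 and 2.02 in the middle animals, which overlapped with the controls (log2 -0.066 ± 0.09, adjusted p = 0.647). Between 300 and 600 mg/kg Hspa5 changed by -0.22 ± 0.07 (adjusted p = 0.05 after rounding, not under the threshold) and Pdia4 by -0.24 ± 0.09 (adjusted p = 0.0737). Hsp90b1 fell by 0.20 ± 0.06 (adjusted p = 0.039), a call lost without 8 of the 12 arrays in turn (control 1, low 1, 2 or 3, middle 1 or 2, high 1 or 2). Within slides, each step in dose has 1 animal on 1 side or on both. Hspa5 had log2 differences of -0.19 in low 1 minus the controls and -0.13 and -0.16 in middle minus low on slides 2 and 3. In the high animals minus middle 3 it had -0.22. The slide-blocked fit called Hspa5 in no comparison of neighbouring doses. Hsp90b1 had -0.11, -0.074, -0.072 and -0.15 in the same 4 steps, and Pdia4 -0.084, 0.039, -0.17 and -0.31. The chaperones varied together among animals: high 3 was the highest high animal for all 3 chaperones, and middle 2 the lowest middle animal for Hspa5 and Pdia4.

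Markers of the proximal tubule also fell at 600 mg/kg against control. Of 10 such genes, all measured, 8 fell and 0 rose at 600 mg/kg against control, where 34.8% of all genes were called, and 2 fell in the slide-blocked fit (median log2 change -0.44 without the block and -0.18 with it). Their summed linear signal was 660 to 698 in high animals, against 850 to 897 in controls. At 300 mg/kg against control none of the 10 was called, with sums of 805 to 832 in the middle animals. The median change of the 10 there was -0.063, and 0.11 in the slide-blocked fit. That of the 3 chaperones was -0.19 in both fits. Of 10 tested macrophage markers 8 rose at 600 mg/kg against control, and 1 in the slide-blocked fit. Their summed signal was 43.7 to 48.8 in high animals and 32.5 to 38.3 in controls. Of 7 endothelial markers 6 fell, and 0 in the slide-blocked fit. Their median change was -0.28, and -0.16 at 300 mg/kg against control. Of the 3 tested markers of the distal convoluted tubule 3 rose, and 1 in the slide-blocked fit. The part of these changes in the falls of the chaperones was not tested.

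**Figure D2:**
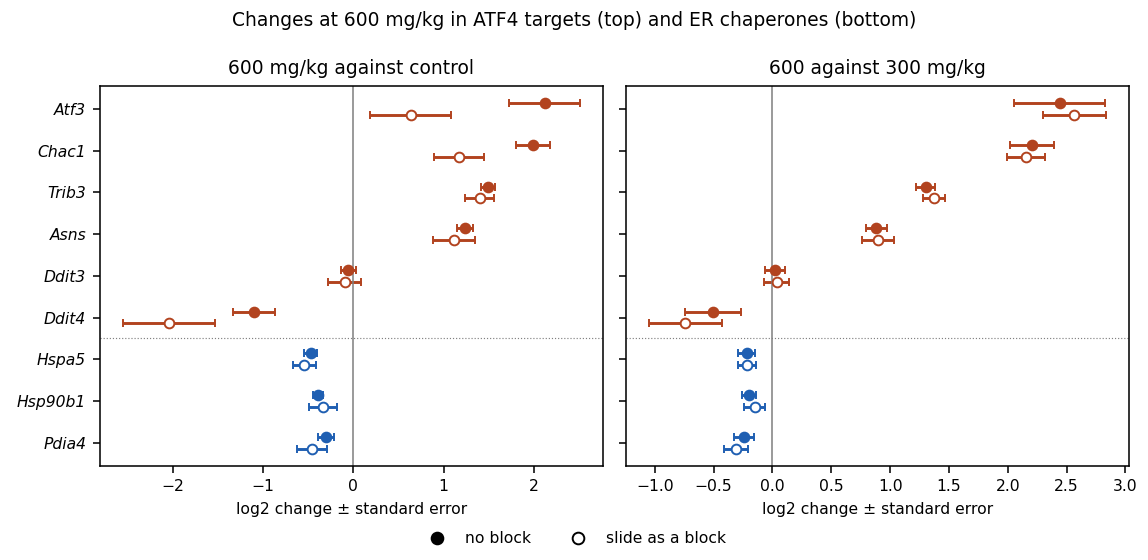
Log2 changes of the 9 genes at 600 mg/kg against control (left) and against 300 mg/kg (right), with standard errors as bars, n = 3 animals per group. Filled points have no block and open points have slide as a block. Atf3, Chac1, Trib3 and Asns lie right of 0 in all 4 sets of values, the Ddit3 bars cross 0 in each, and the chaperones lie left of 0.

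The arms were also averaged. With each gene set to its control mean, the 6 ATF4 targets averaged 0.82, 0.95 and 1.07 in the high animals and the 3 chaperones -0.44, -0.47 and -0.27. The ATF4 mean minus the chaperone mean was 0.016, 0.063 and -0.079 in the controls, -0.25, 0.17 and 0.37 in the low animals, -0.031, 0.15 and 0.065 in the middle animals, and 1.26, 1.42 and 1.34 in the high animals. The high animals overlapped with no other group. The ATF4 mean takes in the fall of Ddit4 and the uncalled Ddit3, so it lies below the changes of the other 4. It also takes in Chac1, which entered through the high group alone and raises the mean there. The change of Chac1 against control was 1.99, and 0.80 with normexp, so part of the separation was built into the choice of genes.

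**Figure D3:**
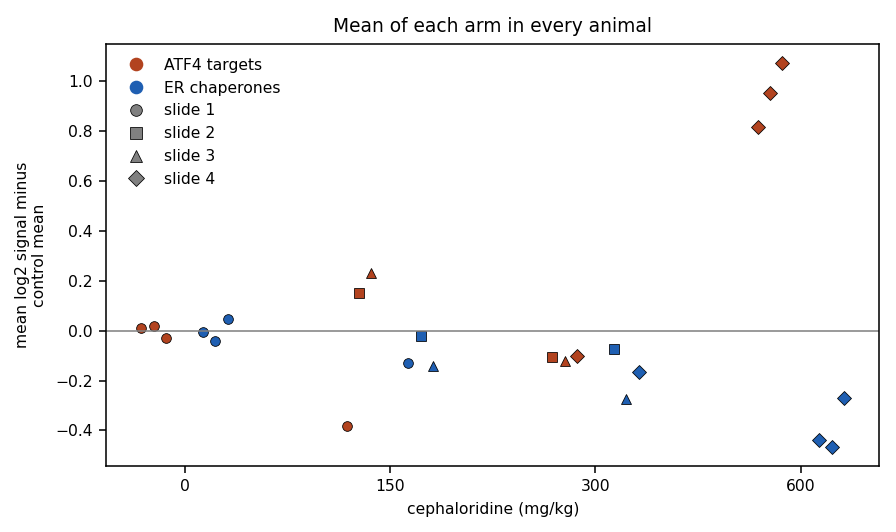
Mean log2 signal of the 6 ATF4 targets (red) and the 3 ER chaperones (blue) in each of the 12 animals, each gene set to its control mean, by dose in mg/kg. Marker shapes show the slide. The arms lie farthest apart in the 3 high animals, where the ATF4 mean is 0.82 to 1.07 and the chaperone mean -0.47 to -0.27.

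Further ATF4 and CHOP targets moved in both directions at 600 mg/kg against control. Of 16 tested genes 6 were higher and 3 lower, with a median log2 change of 0.14 against -0.0021 over all genes. The counts of this list and those that follow stand against 18% of all tested genes higher and 16.8% lower. Gdf15 rose 1.92-fold (log2 0.94 ± 0.27, adjusted p = 0.022) and Ppp1r15a 1.54-fold (log2 0.62 ± 0.17, adjusted p = 0.0177), and in the slide-blocked fit both changed sign (log2 -0.27 and -0.16, adjusted p = 0.548 and 0.561). That fit rests on low 1, the lowest low animal for both genes. Sesn2, a stress-induced inhibitor of mTORC1, fell by 0.57 ± 0.13 (adjusted p = 0.00739), and Adm2, a peptide hormone gene, by 0.38 ± 0.08 (adjusted p = 0.0066). Of 6 tested amino acid transporters 3 were higher and 1 lower. The neutral amino acid transporters Slc7a5 and Slc1a5 rose 1.85-fold and 1.80-fold (log2 0.89 ± 0.10 and 0.85 ± 0.06, adjusted p = 0.000241 and 1.68e-05), while the shared heavy chain Slc3a2 fell by 0.23 ± 0.07 (adjusted p = 0.0279).

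Aminoacyl-tRNA synthetases, which charge tRNAs in the cytosol and are ATF4 targets, were higher in 11 of 18 tested genes and lower in 0 (median 0.22). Yars1, the tyrosine enzyme, rose by 0.44 ± 0.04 (adjusted p = 9.87e-05, and 0.0403 in the slide-blocked fit), and Farsb, a phenylalanine enzyme subunit, rose by 0.36 ± 0.04 (adjusted p = 0.000125). Serine, one-carbon, proline and cysteine enzymes were higher in 1 and lower in 4 of 6 tested genes. The serine synthesis genes Phgdh and Psat1 fell by 0.45 ± 0.07 and 0.33 ± 0.07 (adjusted p = 0.000724 and 0.00543), and Aldh18a1 of proline synthesis rose by 0.40 ± 0.08 (adjusted p = 0.00329). In the slide-blocked fit, these 4 lists had 1 call in all, that of Yars1.

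In other parts of the ER machinery the share of genes called at 600 mg/kg against control was near or below the 34.8% of all genes. Of 21 other ER chaperones and folding enzymes 2 were higher and 6 lower, with a median of -0.083. Calr, a calcium-binding lectin chaperone, fell by 0.49 ± 0.08 (adjusted p = 0.00126) and Pdia5, a disulfide isomerase, by 0.31 ± 0.06 (adjusted p = 0.00317). The oxidase Ero1a rose by 0.35 ± 0.04 (adjusted p = 0.000327) and Dnajc10, a reductase, by 0.14 ± 0.04 (adjusted p = 0.0316). Genes for ER-associated degradation were lower in 4 of 13 and higher in 0, with Edem1 at -0.45 ± 0.06 (adjusted p = 0.00093) and Syvn1 at -0.29 ± 0.05 (adjusted p = 0.0013). Of 16 genes for translocation into the ER 3 were higher and 1 lower: Ssr1 rose by 0.43 ± 0.05 and Sec11a by 0.16 ± 0.04, and Srp72 fell by 0.17 ± 0.04 (adjusted p = 0.000249, 0.0166 and 0.0125). In the slide-blocked fit 0 genes of these 3 lists and of the sensors were called.

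Sensors and regulators were higher in 2 and lower in 3 of 13 tested genes. Atf6, the factor that drives the ER chaperones, fell by 0.61 ± 0.11 (adjusted p = 0.00243). It read 1.14, 1.05 and 0.96 in the controls and 0.67, 0.82 and 0.43 in the low animals. The middle animals read 0.48, 0.21 and 0.47, and the high animals 0.48, 0.55 and 0.30. Every low and middle animal thus also stood below every control. From the middle to the high group Atf6 changed by 0.057 ± 0.11 (adjusted p = 0.759). The activity of the ATF6 protein was not measured. Its activating protease Mbtps1 fell by 0.23 ± 0.05 (adjusted p = 0.00744). The eIF2α gene Eif2s1 and the RNA-sensing kinase Eif2ak2 rose by 0.21 ± 0.05 and 0.22 ± 0.07 (adjusted p = 0.00988 and 0.0326). Cytosolic heat shock genes were higher in 11 and lower in 1 of 17, with a median of 0.32, and 4 were higher in the slide-blocked fit. The inducible Hsp70 gene Hspa1a, which shares near-identical sequence with Hspa1b, read 7.07, 6.79 and 6.98 in the high animals, against 1.10, 1.51 and 1.09 in the controls (adjusted p = 1.56e-06, and 0.00366 in the slide-blocked fit). Hspa1b was not well above background in any control and was at least 24.4-fold higher in the high animals (adjusted p = 7.03e-07). It too could enter the test only through a dosed group, so its adjusted p is no independent support for the count. Hspa4, an Hsp110 chaperone, fell by 0.66 ± 0.10 (adjusted p = 0.00076, and log2 -0.26, adjusted p = 0.499, in the slide-blocked fit). At 150 mg/kg against control, 0 genes of these lists were called.

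**Figure D4:**
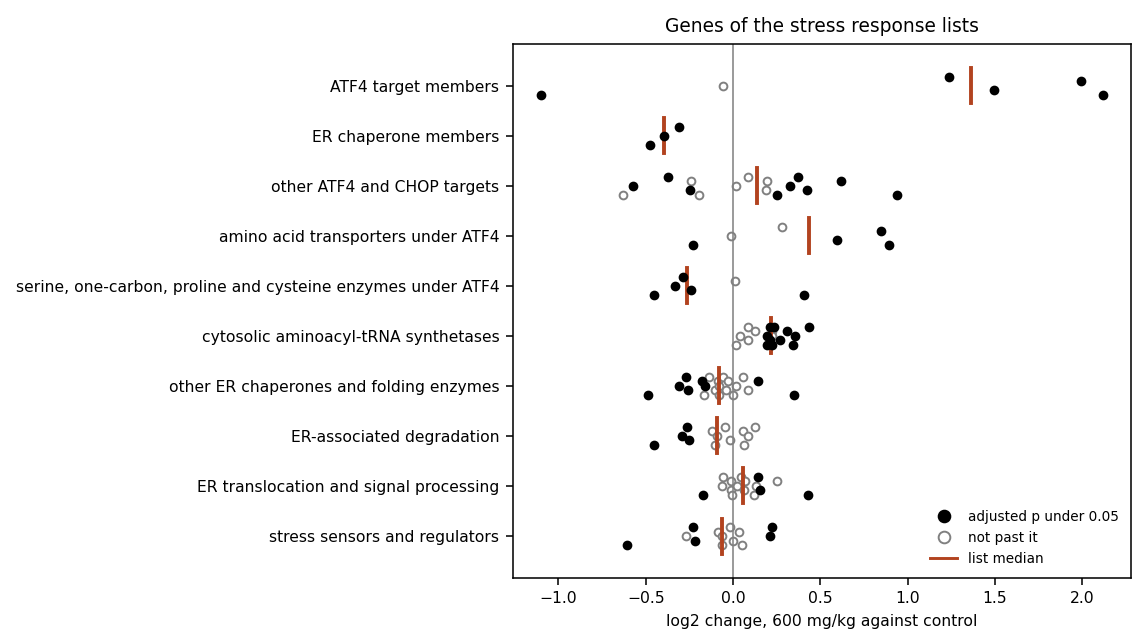
Log2 changes at 600 mg/kg against control (horizontal axis) of the tested genes of 10 lists (rows), n = 3 animals per group. Filled points passed an adjusted p of 0.05, open ones did not, and vertical bars are list medians. The ATF4 target members spread from -1.10 to 2.12, and the chaperone members lie between -0.47 and -0.31.

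The promoter elements were set beside these lists as a description. The composite element was found in 7 of 17 windows of tRNA synthetases and 3 of 15 of the further ATF4 targets, and in 0 of 20 of the other chaperones. The ER stress element was found in 5 of those 20 (Calr, Canx, Dnajc3, Creld2 and Ero1b), of which Calr was called and lower. Of tested genes with the composite element, 4 of 6 synthetases were higher at 600 mg/kg against control, beside 11 of all 18 tested synthetases. Of the further ATF4 targets with it 0 of 3 were higher, and of the transporters 1 of 2. The 1 tested gene of ER-associated degradation with it was lower.

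The genes whose pattern over all 12 arrays was most like the mean of an arm, without members, came from 10483 candidates. For the ATF4 arm, whose mean used 5 members, they were Cdk6 (Pearson r 0.92), Fam111a (0.92), Glipr1 (0.91), Ywhah (0.91) and Upp1 (0.91). For the chaperone arm they were Hook3 (r 0.97), Manf (0.94), Arfgef3 (0.94), Syne2 (0.94) and Calr (0.93). By the rule used for Atf3 alone above, Trib3 was most like Cdc6 (r 0.99), Exo1 (0.99) and Pfas (0.99). Asns was most like Cdt1 (r 0.99), Acsl5 (0.98) and Mcm2 (0.98). In all these correlations the points share arrays and slides, and the 3 high animals stand apart in them. Manf and Calr are ER proteins too, and they fell by 0.26 and 0.49.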

How the data were processed

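Labelled RNA of 12 kidney cortices was hybridised to Agilent arrays in 1 colour. Per the file headers, Agilent Feature Extraction 9.1.3.1 gave the intensity columns, which are linear and background-subtracted, with no scaling between arrays, and other columns that flag spots as outliers or as well above background. The deposited value table is a ratio: all 40749 probes spotted once lay within 0.1% of the processed signal, floored at 5, divided by 1 constant per array. Its column medians ran from 1.003 to 1.005, so its scale is linear and centred per array.

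Signals were log2 transformed after outlier spots were left out, spots of a probe were averaged, and the 75th percentile of each array was subtracted. Probes were named through RefSeq by accession (10735), current symbol (5577) or older symbol (3730), and 20970 had no match. The brightest probe over the 12 arrays stood for a gene. The test took in 20759 genes, those that some group measured well above background on each of its arrays. It was the moderated test of limma 3.58.1 (R 4.3.3) on a mean for every group, fitted to all 12 arrays at once, with a Benjamini-Hochberg threshold of 0.05 for a call. The number of arrays limits the precision. On simulated data for high against control, in a fit of 20759 genes, 73% of changes of 0.5 and 88% of changes of 1 on the log2 scale were recovered, with 13 false calls. The simulation changed 200 genes and had independent noise with no slide effect. Its rates therefore do not carry over to the real arrays, where slide and dose are mixed.

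The members, lists, tests and alternatives were chosen with earlier results of these data known. Named in the text are all members, up to 2 higher and 2 lower called genes per list with the largest change at 600 mg/kg, the 5 genes most like each arm, and a few added after their values were seen (Atf4, Ccl3, Il1b, the per-gene likeness, and Canx, Dnajc3, Creld2 and Ero1b through the motif). Alternatives were 13 other settings, among them quantile and median scaling, normexp with an offset of 50, the authors' table, other probe filters and blocks for slide, scan day and replicate number, and leaving out each array in turn.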

Additional observations from a re-analysis of the deposited data

How the results depend on the processing

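Labels give replicate numbers in every group; nothing in the labels says that a number marks a shared batch, and over 18 pairs of samples with the same number the deviations from the group means correlated between -0.23 and 0.12, so the numbers do not pair the samples. With the replicate number as a block, 0 ATF4 targets and 0 chaperones were called at 300 mg/kg against control (1 and 1 without it), 0 chaperones at 600 against 300 mg/kg, 9 genes at 150 mg/kg against control and 18 at 300 against 150 mg/kg.

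Calls of the 4 rising ATF4 targets at 600 against 300 mg/kg held without any single array and under every alternative, except that Asns lay below a 2-fold limit and Chac1 was not tested among probes well above background on all arrays. Against control at 600 mg/kg, 5 of 6 ATF4 targets and 3 of 3 chaperones were called, and with slide as a block 1 and 0, with 584 genes in all. A 2-fold limit left 0 chaperones and 352 genes there. At 300 mg/kg against control (1 and 1 called of 2703 genes), 0 and 0 were called with no filter on dim probes (897 genes), only the compared groups (264), slide as a block (45) or a 2-fold limit (58), 0 ATF4 targets with scan day as a block, and 2 chaperones with quantile scaling. At 600 against 300 mg/kg (1 chaperone of 4665 genes), 0 chaperones were called with quantile scaling, the mean of the probes, scan day as a block, no filter (3024 genes), the compared groups (2540), slide as a block (2024) or a 2-fold limit (261), 3 with median scaling or the authors' table, and 2 with normexp or probes well above background on all arrays. At 150 mg/kg against control (21 genes), 42 were called with normexp, 12 with no filter, 0 in the compared groups (fewer samples), 7 with slide and 8 with scan day as a block, and 4 past 2-fold. At 300 against 150 mg/kg (48 genes) there were 28, 29, 14, 0, 31 and 5 with median scaling, the authors' table, no filter, the compared groups, scan day and a 2-fold limit, and slide as a block called 1 ATF4 target. Slide as a block turned the low against control changes of Atf3, Trib3 and Asns to -0.16, -0.12 and -0.097 and the middle against low change of Chac1 to -0.060, and the middle against low change of Pdia4 was 0.017 with median scaling and 0.019 with the authors' table. None of those was called. The gap between the arms at 600 mg/kg was 1.34, and 1.07 with normexp. Except where a setting has fewer samples or genes by its construction, the cause was not tested.

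Without any single array, the genes called ranged from 5345 to 8202 (high against control), 710 to 2713 (middle against control), 5 to 46 (low against control), 3153 to 4568 (high against middle) and 12 to 90 (middle against low). Chaperones called ranged from 2 to 3, 0 to 2, 0 to 0, 0 to 2 and 0 to 0, and ATF4 targets from 5 to 5, 0 to 1, 0 to 1, 4 to 4 and 0 to 1. The gap ranged from 1.30 to 1.38 at 600 mg/kg, 0.017 to 0.11 at 300 mg/kg and -0.041 to 0.27 at 150 mg/kg. Some uncalled changes took both signs. At 300 mg/kg against control that of Pdia4 ranged from -0.13 to 0.033, and at 150 mg/kg against control that of Trib3 from -0.042 to 0.084 and that of Asns from -0.086 to 0.082. At 300 against 150 mg/kg those of Chac1 ranged from -0.036 to 0.41, of Ddit3 from -0.070 to 0.12, of Ddit4 from -0.34 to 0.044 and of Pdia4 from -0.078 to 0.085. Chac1 was dim outside the high group, and signal over background limits its values there.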
